A study of Mus musculus with 9 samples.

Results

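The genes described here are 36 genes of the ciliated cell and its axoneme, the microtubule shaft of the motile cilium, measured in whole lungs of mice that overexpressed IL-4, its splice variant IL-4d2, or no cytokine. They were chosen by name, with earlier results of these data known, so their counts beside those of all genes are a description. Their values come from every probe set of the deposited signal table whose single gene symbol in the platform annotation was one of the 36. Of these genes, 34 had such a probe set, with 55 probe sets between them out of 45101 on the array; Dnai2 and Lrriq1 are named only. After the filter on dim probe sets, 33 genes with 42 probe sets were tested among 23824 probe sets and 11984 genes. Spag6, a protein of the central pair of microtubules, did not pass the filter and was not tested.

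All 9 mice were female C57BL/6 animals aged 14 weeks. Each had received a replication-deficient adenovirus through the trachea 14 days before its lungs were taken, with 3 mice in each group. The control virus (AdV-NULL) encoded no cytokine, AdV-IL4 encoded mouse IL-4, and AdV-IL4d2 encoded mouse IL-4d2. The controls therefore carried the viral vector too, and no uninfected lung is among the groups. Total RNA of the whole lung was hybridised to Affymetrix Mouse Genome 430 2.0 arrays, 1 array per mouse. The 3 mice of a group are separate animals. Their number limits the precision of every value below.

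Motile cilia of the airway carry mucus and trapped particles out of the lung. Each has a ring of outer doublet microtubules around a central pair. Dynein arms on the doublets drive the beat, radial spokes and the central apparatus coordinate it, and intraflagellar transport carries the parts in and out. FOXJ1 is the transcription factor that switches on the genes for motile cilia in multiciliated cells, together with RFX factors. Type 2 cytokines such as IL-4 and IL-13 are known to shift airway epithelium from ciliated cells toward mucus-producing cells.

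Signals were given by the authors on a linear scale with a trimmed mean of 500.002 on every array, and array medians ran from 156 to 171. Pearson correlations between arrays over the tested probe sets ran from 0.932 to 0.979. Among the 33 tested genes, 31 were above the array median on all 9 arrays, and Tekt2 and Dnah5 on 8 of 9. Differences below are on the log2(signal + 16) scale, which slightly understates the change of dim genes. A gene is called when its limma p-value, adjusted by the Benjamini-Hochberg method over all 23824 probe sets, is under 0.05. The brightest tested probe set stands for a gene with several. In whole lung RNA, fewer ciliated cells and less RNA per ciliated cell cannot be told apart.

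One array stood apart for these genes. The second IL-4 mouse had the lowest signal of all 9 arrays in 30 of the 33 genes (90.9%), against 1659 of 11984 genes (13.8%) over the whole table. Its median deviation from the control mean over the 33 genes was -1.0, against -0.10 in the first and -0.44 in the third IL-4 mouse. The 3 IL-4d2 mice lay between -0.05 and 0.01, and the controls between -0.11 and 0.15. Control mouse 1 was the highest of the 3 controls in 29 of 33 genes, a count not made over all genes. Changes in the called counts and called genes of the 33 when these arrays were left out are given. Their single-gene differences from control are also given without IL-4 mouse 2 where that moved them by over 1.5 times. Other counts of the 33 genes come from all arrays unless stated. Differences of named genes in the other lists come from all arrays.

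**Figure D1:**
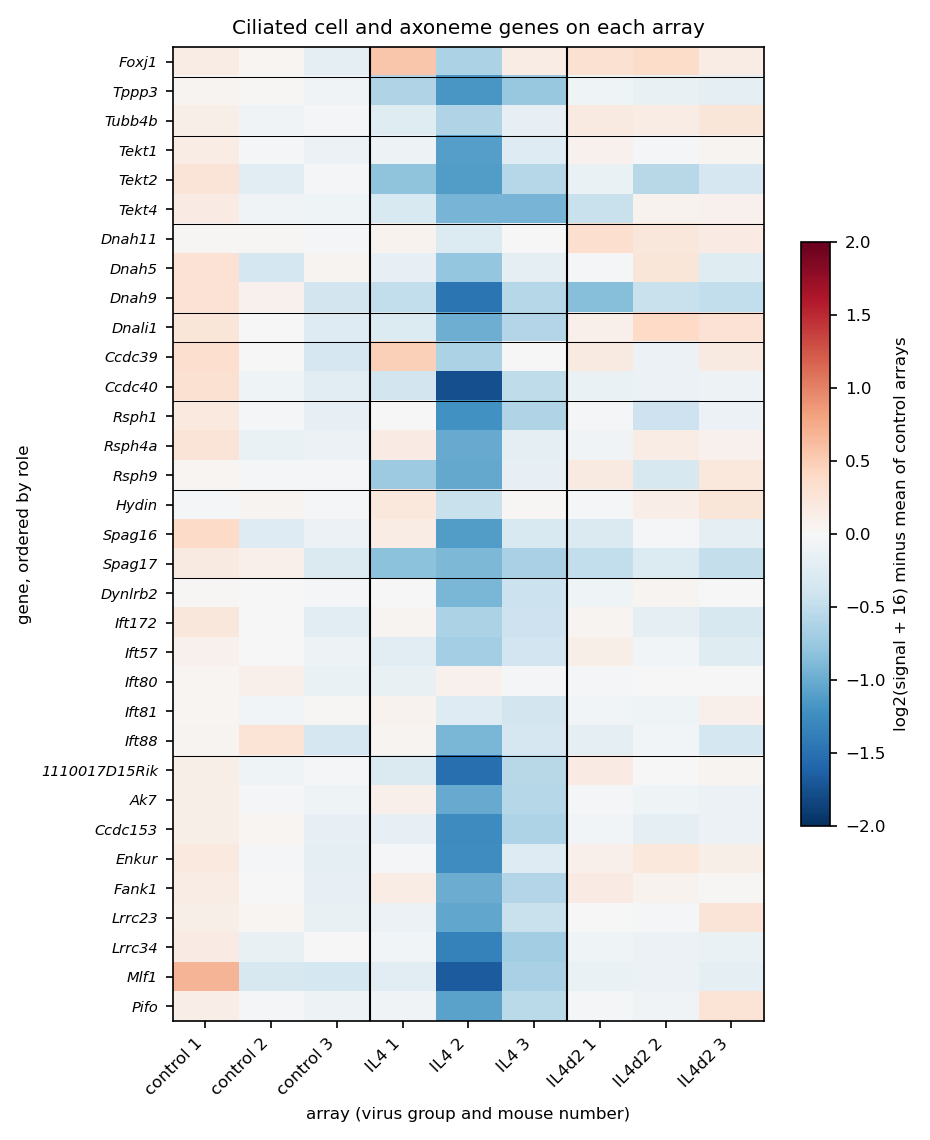
Each cell is the log2(signal + 16) of a gene (vertical axis, ordered by role) on an array (horizontal axis) minus the mean of the 3 control arrays, in red where higher and in blue where lower. The column of the second IL-4 mouse is the bluest, with a median of -1.0 over the 33 genes, while the IL-4d2 columns lie near 0.

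IL-4 was compared with the control virus to ask how the cytokine changed the ciliary genes of the lung. It lowered 7 of the 33 genes and raised none: the tubulin-binding Tppp3, the tektins Tekt2 and Tekt4, the outer arm dynein Dnah9, the central apparatus gene Spag17, and the ciliated cell genes Ccdc153 and 1110017D15Rik. The called genes fell by between 0.68 and 0.84 on the log2 scale. Over all tested genes 6.63% were called lower and 6.34% higher. Of the 33 genes, 32 had a difference below 0, against 52.6% of all genes, and the median difference was -0.49, against -0.02 for all genes. At an unadjusted limma p under 0.05, 20 of the 33 were lower and 0 higher, against 15.6% of all genes lower. All 3 IL-4 arrays lay below all 3 controls in 12 genes, against 17% of all genes, and above them in 0, against 14.9%.

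The number of called genes moved with single arrays. Leaving out control mouse 1, 2 or 3 gave 2, 3 or 4 called genes, and leaving out IL-4 mouse 1, 2 or 3 gave 18, 3 or 5. Leaving out any one IL-4d2 mouse, which changes only the shared estimate of the spread, gave 4. Over all probe sets 1211 were called lower with every array in. That count was 568, 871 and 767 without control mouse 1, 2 and 3, and 941, 934 and 918 without IL-4 mouse 1, 2 and 3. It lay between 985 and 1031 without an IL-4d2 mouse. The median difference of the 33 genes was -0.74 without IL-4 mouse 1 and -0.23 without IL-4 mouse 2. With IL-4 mouse 2 left out, Tppp3, Spag17 and 1110017D15Rik were called lower, or 9.09% of the 33 genes against 5.01% of all genes. In that fit 29 of the 33 differences (87.9%) were below 0, against 52.1% over all genes. The other 2 IL-4 mice were both below all controls in 12 of the 33 genes (36.4%), against 22.6% of all genes.

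**Figure D2:**
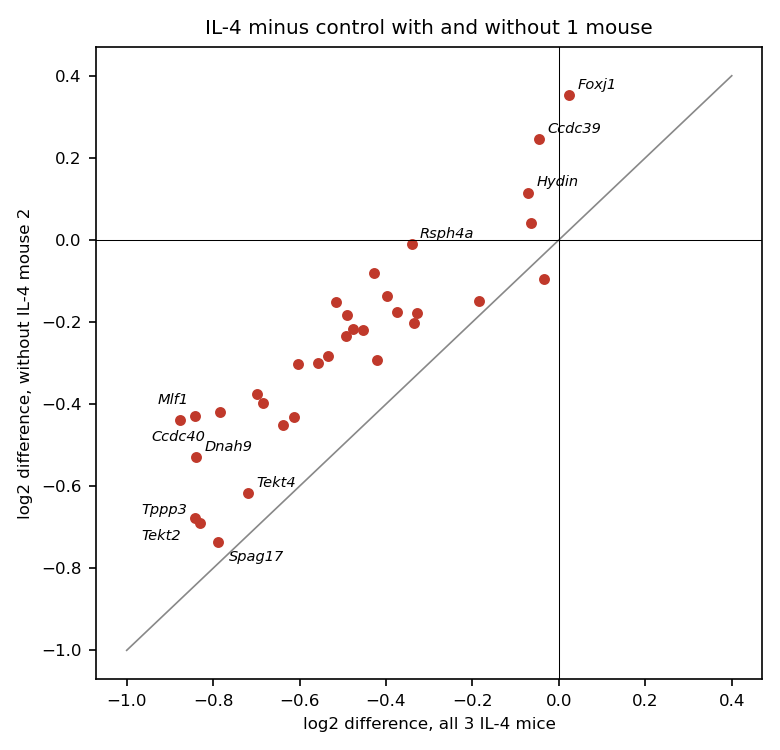
Each point is 1 of the 33 genes, with its log2 difference between IL-4 and control from all 3 IL-4 mice on the horizontal axis and without IL-4 mouse 2 on the vertical axis; the grey line marks equal values. Nearly all points lie above the line, Foxj1 moved from 0.02 to 0.35, and Spag17 moved from -0.79 to -0.74.

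Foxj1, the regulator at the head of the motile cilium programme, was not called. Its signals were 1634, 1521 and 1303 in the control mice, 2188, 949 and 1639 in the IL-4 mice, and 1840, 1913 and 1647 in the IL-4d2 mice. The IL-4 mice spanned the controls on both sides, with the first above all of them and the second below. The difference of IL-4 from control was 0.02 ± 0.22 (SE; limma adjusted p = 0.96), with a 95% interval from -0.46 to 0.51, and 0.35 (adjusted p = 0.15) without IL-4 mouse 2. Scaled to the spiked poly-A controls it turned to -0.76 (adjusted p = 0.0044), where the median of all probe sets was -0.77. All 3 IL-4d2 mice were above all 3 controls, but the difference of 0.28 was not called (limma adjusted p = 0.633).

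Tppp3, a tubulin polymerisation promoting protein that marks ciliated cells in the lung, showed the clearest separation. Its signals were 7406, 7211 and 6746 in the controls, 4686, 3156 and 4210 with IL-4, and 6679, 6419 and 6277 with IL-4d2. All IL-4 mice lay below all others, and the IL-4d2 mice lay just below the controls. The group means were 7121 ± 339, 4017 ± 783 and 6458 ± 204 (SD, n = 3 each). IL-4 was 1.79-fold lower than control (-0.84 ± 0.12, limma adjusted p = 0.0015; 95% interval -1.11 to -0.58). The call held in each of the 9 fits that left out 1 array, with differences from -0.96 to -0.68. Tubb4b, a beta tubulin of the axoneme, is described with the comparison of the 2 cytokine forms.

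Tektins are filament proteins inside the doublet microtubules, and 2 of the 3 measured fell. Tekt2 read 369, 261 and 301 in the controls, 169, 133 and 201 with IL-4, and 278, 205 and 240 with IL-4d2. The IL-4 mice were all below the controls and all below the IL-4d2 mice. The difference was -0.83 ± 0.20 (1.78-fold lower, limma adjusted p = 0.0208). It was no longer called without control mouse 1 (-0.71, adjusted p = 0.0942), without control mouse 3 (-0.85, 0.0547) or without IL-4 mouse 2 (-0.69, 0.063). Tekt4 read 493, 415 and 409 in the controls, 351, 223 and 222 with IL-4, and 316, 459 and 464 with IL-4d2. Here too the IL-4 mice lay below every control, while 1 IL-4d2 mouse fell within the IL-4 range. Its difference was -0.72 ± 0.20 (limma adjusted p = 0.0381). That call was lost without control mouse 1 (-0.64, 0.133), 2 (-0.76, 0.0665) or 3 (-0.77, 0.071) and without IL-4 mouse 2 (-0.62, 0.107) or 3 (-0.61, 0.112). Tekt1, with a difference of -0.49, or -0.18 without IL-4 mouse 2, was not called.

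**Figure D3:**
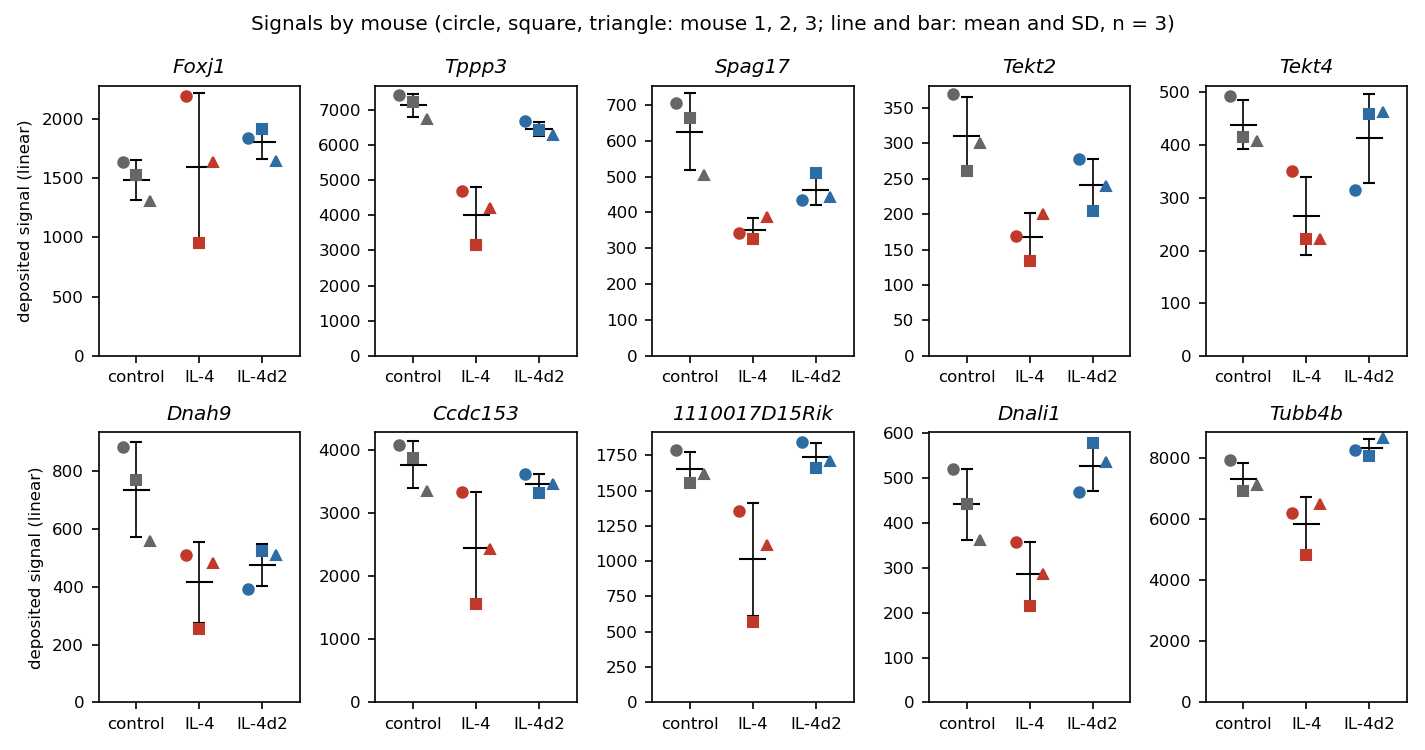
Linear signals of 10 genes in the 9 mice, with the virus group on the horizontal axis, 1 marker per mouse, and the group mean with its SD (n = 3). Tppp3 in the IL-4 mice lay between 3156 and 4686, below every other mouse, while Foxj1 in the IL-4 mice spread from 949 to 2188.

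The outer dynein arms hold the motor proteins that give the beat most of its power. Dnah9, one of their heavy chains, read 881, 767 and 556 in the controls, 509, 253 and 482 with IL-4, and 393, 525 and 509 with IL-4d2. Both cytokine groups lay below every control and overlapped each other. IL-4 differed from control by -0.84 ± 0.24 (limma adjusted p = 0.0461), and IL-4d2 by -0.60 ± 0.24 (adjusted p = 0.279, unadjusted 0.0299). The IL-4 call was kept only without IL-4 mouse 1 (-1.01, adjusted p = 0.0345) or control mouse 3 (-1.02, 0.0359). It was lost without control mouse 1 (-0.70, 0.162) or 2 (-0.80, 0.11), without IL-4 mouse 2 (-0.53, 0.112) or 3 (-0.98, 0.0508), and without IL-4d2 mouse 1 (0.0554), 2 (0.0616) or 3 (0.0642). Dnah5 and Dnah11, the other outer arm heavy chains tested, differed by -0.37 and -0.07 and were not called. Without IL-4 mouse 2 they were at -0.18 and 0.04.

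Spag17, a large protein of the central apparatus, read 706, 665 and 503 in the controls, 343, 325 and 388 with IL-4, and 434, 510 and 442 with IL-4d2. The IL-4 mice were below all others and close to each other, including the second. The difference was -0.79 ± 0.14 (limma adjusted p = 0.00545), and its call held in all 9 fits that left out 1 array, with values from -0.93 to -0.70. With control mouse 1 left out together with IL-4 mouse 2 it was -0.64 (adjusted p = 0.0637). IL-4d2 differed from control by -0.41 ± 0.14 (limma adjusted p = 0.203, unadjusted 0.0143). The other central apparatus genes, Spag16 (-0.43) and Hydin (-0.07), were not called for IL-4. Without IL-4 mouse 2 they were at -0.08 and 0.11.

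Among the ciliated cell genes with no single axonemal role in the list, 2 of 9 were called. Ccdc153 read 4090, 3876 and 3354 in the controls, 3343, 1562 and 2434 with IL-4, and 3628, 3314 and 3460 with IL-4d2. The first IL-4 mouse was just below the lowest control, and the second was far below it. The difference was -0.68 ± 0.20 (limma adjusted p = 0.0498). This call was kept in 1 of 9 fits with an array left out, the one without IL-4 mouse 1 (-0.94, adjusted p = 0.00502). The other fits gave -0.40 (0.0959) without IL-4 mouse 2, -0.71 (0.0915) without IL-4 mouse 3, -0.62 (0.147), -0.66 (0.109) and -0.77 (0.0693) without control mouse 1, 2 and 3, and adjusted p of 0.0693, 0.0683 and 0.0711 without IL-4d2 mouse 1, 2 and 3.

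1110017D15Rik read 1786, 1552 and 1617 in the controls, 1352, 569 and 1115 with IL-4, and 1847, 1656 and 1711 with IL-4d2. All IL-4 mice were below all others, and the IL-4d2 mice overlapped the controls. The difference was -0.78 ± 0.23 (limma adjusted p = 0.0496). It kept its call without IL-4 mouse 1 (-1.03, adjusted p = 0.013) and without IL-4 mouse 2 (-0.42, 0.0454). The call was lost without IL-4 mouse 3 (-0.90, 0.0609), without control mouse 1 (-0.73, 0.142), 2 (-0.83, 0.0827) or 3 (-0.80, 0.101), and without IL-4d2 mouse 1 (0.0689), 2 (0.0681) or 3 (0.0705).

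The remaining 7 of these 9 genes were not called, with IL-4 differences of -0.49 for Ak7, an adenylate kinase, -0.52 for Enkur, -0.48 for Fank1, -0.54 for Lrrc23, -0.70 for Lrrc34, -0.84 for Mlf1 and -0.56 for Pifo. All 7 were smaller without IL-4 mouse 2, at -0.23 for Ak7, -0.15 for Enkur, -0.22 for Fank1, -0.28 for Lrrc23, -0.38 for Lrrc34, -0.43 for Mlf1 and -0.30 for Pifo. Mlf1 had the widest spread, with 2317, 1145 and 1121 in the controls, 1237, 443 and 916 with IL-4, and 1314, 1326 and 1263 with IL-4d2 (limma adjusted p = 0.124 for IL-4).

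Ccdc39 and Ccdc40 form the ruler that sets the spacing of dynein arms and radial spokes. Ccdc40 differed by -0.88 ± 0.29, the largest of the 33 genes with all arrays in, and was not called (limma adjusted p = 0.0736). Without IL-4 mouse 2 it was at -0.44, smaller than Spag17, Tekt2, Tppp3, Tekt4, Dnah9 and Rsph9 in the same fit. It read 714, 541 and 489 in the controls, 442, 159 and 397 with IL-4, and 524, 530 and 532 with IL-4d2. The IL-4 mice were below all others, and the second was the dimmest by far. Ccdc39 differed by -0.05, or 0.25 without IL-4 mouse 2, and a second Ccdc39 probe set by 0.05.

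No radial spoke gene was called for IL-4. Rsph9, a spoke head protein, read 637, 609 and 608 in the controls, 366, 297 and 548 with IL-4, and 702, 489 and 717 with IL-4d2. Its IL-4 mice lay below every control but overlapped the IL-4d2 mice (-0.64, limma adjusted p = 0.0621). The spoke head genes Rsph1 and Rsph4a differed by -0.60 and -0.34. Without IL-4 mouse 2 Rsph1 was at -0.30 and Rsph4a at -0.0096, and Rsph9 at -0.45.

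None of the 6 intraflagellar transport genes was called either, and their median IL-4 difference was -0.36 with all arrays in. Dynlrb2, a dynein light chain, read 7013, 6874 and 6711 in the controls, 6860, 3622 and 5066 with IL-4, and 6489, 7106 and 6903 with IL-4d2. The first IL-4 mouse was at the control level and the other 2 below it (-0.45, limma adjusted p = 0.111; -0.22 without IL-4 mouse 2). The carrier complex genes differed by -0.42 (Ift57), -0.40 (Ift88), -0.33 (Ift172), -0.19 (Ift81) and -0.03 (Ift80). Without IL-4 mouse 2 Ift88 was at -0.14, Ift172 at -0.18 and Ift80 at -0.09.

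The regions before the starts of these genes are shown because FOXJ1 and RFX factors act there in motile ciliogenesis. RefSeq windows on GRCm38.p6, from 250 bases before to 50 bases after a start, were found for 27 of the 33 genes, in 32 windows. They were searched on both strands for the core of the RFX site, GTTGCC, which reads GGCAAC on the other strand. They were also searched for the palindromic X-box and for 2 forkhead motifs, TGTTTAC and, as a variant, TGTTTGC. Below are 5 windows of genes that IL-4 lowered, 4 chosen because they hold matches and the Spag17 window without any, 5′ to 3′ on the strand named and with all matches in capitals.
Tekt2, chr4:126325597-126325896, minus strand: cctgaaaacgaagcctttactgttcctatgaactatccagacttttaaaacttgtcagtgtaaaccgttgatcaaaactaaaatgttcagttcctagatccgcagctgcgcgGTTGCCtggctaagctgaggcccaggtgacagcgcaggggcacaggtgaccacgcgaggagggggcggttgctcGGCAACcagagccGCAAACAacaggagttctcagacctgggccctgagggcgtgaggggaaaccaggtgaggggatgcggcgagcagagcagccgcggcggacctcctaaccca
Tekt4, chr17:25471340-25471639, plus strand: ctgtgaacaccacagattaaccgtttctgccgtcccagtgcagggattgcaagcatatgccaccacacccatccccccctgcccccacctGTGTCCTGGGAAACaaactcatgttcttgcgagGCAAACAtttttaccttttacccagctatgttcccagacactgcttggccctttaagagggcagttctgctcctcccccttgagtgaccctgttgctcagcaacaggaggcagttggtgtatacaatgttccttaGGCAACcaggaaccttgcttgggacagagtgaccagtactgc
1110017D15Rik, chr4:41507715-41508014, minus strand: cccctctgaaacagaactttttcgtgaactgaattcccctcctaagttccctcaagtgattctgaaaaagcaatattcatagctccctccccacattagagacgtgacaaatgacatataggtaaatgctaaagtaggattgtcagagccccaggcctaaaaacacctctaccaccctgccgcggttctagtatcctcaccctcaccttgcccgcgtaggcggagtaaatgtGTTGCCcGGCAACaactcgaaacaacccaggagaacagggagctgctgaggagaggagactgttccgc
Ccdc153, chr9:44240427-44240726, plus strand: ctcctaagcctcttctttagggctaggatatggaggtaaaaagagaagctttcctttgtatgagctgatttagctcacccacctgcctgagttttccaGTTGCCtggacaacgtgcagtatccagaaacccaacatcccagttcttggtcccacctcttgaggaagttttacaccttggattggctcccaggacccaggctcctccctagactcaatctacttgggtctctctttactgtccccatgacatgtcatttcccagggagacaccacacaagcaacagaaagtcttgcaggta
Spag17, chr3:99885167-99885466, plus strand: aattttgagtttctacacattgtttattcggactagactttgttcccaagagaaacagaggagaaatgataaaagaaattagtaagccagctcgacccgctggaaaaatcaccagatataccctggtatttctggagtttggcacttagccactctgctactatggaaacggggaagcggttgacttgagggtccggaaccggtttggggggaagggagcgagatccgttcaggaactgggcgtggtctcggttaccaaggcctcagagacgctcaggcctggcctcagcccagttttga
The RFX core was in 18 of 32 windows (56.2%), in 17 genes, against 12.5% of all 32851 windows. The X-box was in 4 windows (12.5%, against 1.88%), and either forkhead motif in 8 (25%, against 8.48%). Of the 7 genes called lower with IL-4, 6 had windows, and 5 of their 9 windows held a match. The Dnah9 window and a further window each of Tekt2 and 1110017D15Rik held none. The Tekt2 windows starting at 126325597 and 126325639 overlap and hold the same 3 matches. Those sites therefore count more than once among the 9 and the 32 windows. An X-box can overlap an RFX core. The Tekt4 window holds an X-box, a forkhead match and an RFX core, and in 1110017D15Rik a core on each strand lies 1 base apart. A match describes the letters of the window and does not show binding, and the windows without a match say nothing about the factors.

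IL-4d2 was compared with the same control mice to ask whether the splice variant did what IL-4 did. None of the 33 genes was called by limma in either direction, against 0.401% of all genes called lower and 0.859% higher. At an unadjusted p under 0.05 there were 2, Dnah9 and Spag17, both lower, against 15.5% of all genes in either direction. The differences ran from -0.60 to 0.28 with a median of -0.01, against -0.0011 for all genes, and 19 were below 0 (50.2% of all genes) and 14 above. The median turned to 0.08 with scaling to hybridisation controls and to 0.26 with poly-A controls, where that of all probe sets was 0.08 and 0.27. All IL-4d2 mice lay below all controls for Tppp3 and Dnah9, and above all of them for Foxj1, Dnah11 and Tubb4b, against 11.3% and 11.4% of all genes. A dimmer Tubb4b probe set went the other way, with all IL-4d2 mice below all controls (-0.62, limma adjusted p = 0.184). The third tested Tubb4b probe set was at 0.0041. For Tppp3 the interval of the IL-4d2 difference, -0.41 to 0.13, did not reach the IL-4 value of -0.84.

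**Figure D4:**
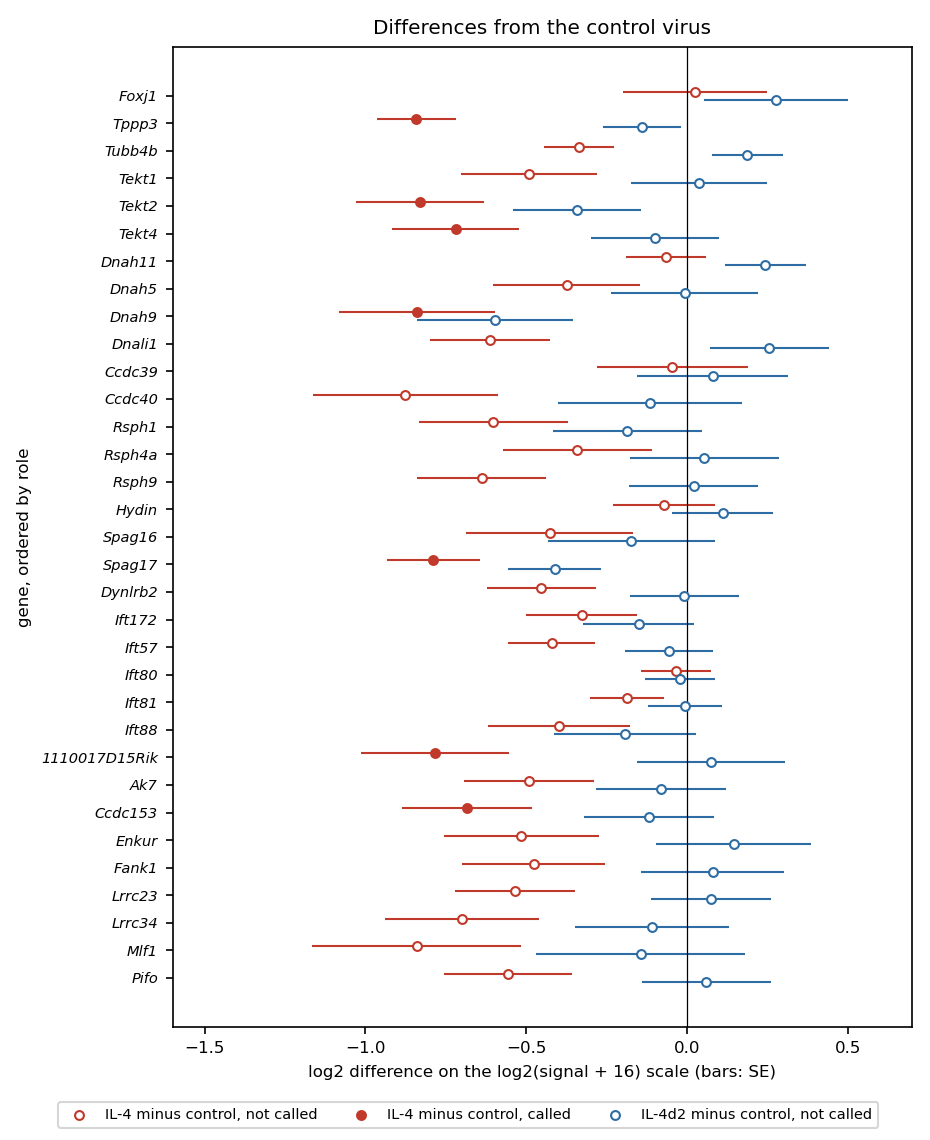
Each gene's log2 difference from the control virus (horizontal axis, bars are SE from limma) for IL-4 in red and IL-4d2 in blue, with called differences filled. The 7 filled points are all IL-4 and all lie between -0.84 and -0.68, while the IL-4d2 points lie between -0.60 and 0.28.

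The direct comparison of the cytokine forms asks where their effects differed. IL-4 was lower than IL-4d2 in 3 of the 33 genes (Tppp3, Dnali1 and Tubb4b) and higher in none, against 1.05% of all genes lower and 1.18% higher. All 33 differences were below 0, against 53.6% of all genes, with a median of -0.44 against -0.02. At an unadjusted p under 0.05, 19 were lower, against 10.3% of all genes. All IL-4 mice lay below all IL-4d2 mice in 13 genes, against 13% of all genes. The counts of 19 and 13 were not made without IL-4 mouse 2. In the fit without that mouse, 28 of the 33 differences lay below the median of all probe sets, 0.0051. Those above 0 were Foxj1 (0.08), Ccdc39 (0.17), Dnah9 (0.07), Spag16 (0.09), Ift88 (0.06) and Hydin (0.0037). The count of called genes was 11 without IL-4 mouse 1, 1 without IL-4 mouse 2, 2 without control mouse 3, and 0 without any single IL-4d2 mouse. Over all probe sets 199 were called lower with every array in. That count was 190 without IL-4 mouse 1, 113 without IL-4 mouse 2 and 155 without control mouse 3. It was 78, 65 and 38 without IL-4d2 mouse 1, 2 and 3. The median of the 33 genes was -0.65 without IL-4 mouse 1 and -0.24 without IL-4 mouse 2.

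Tppp3 was 1.63-fold lower with IL-4 than with IL-4d2 (-0.70 ± 0.12, limma adjusted p = 0.0144). It stayed called without IL-4 mouse 2 (-0.54, adjusted p = 0.0206). The call was lost without IL-4d2 mouse 1 (-0.68, 0.0604), 2 (-0.71, 0.0552) or 3 (-0.72, 0.06).

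Dnali1, a light chain of the inner dynein arms, read 520, 442 and 363 in the controls, 357, 215 and 286 with IL-4, and 467, 578 and 536 with IL-4d2. The IL-4 mice were below all others, and 2 IL-4d2 mice were above every control. IL-4 was 1.83-fold lower than IL-4d2 (-0.87 ± 0.19, limma adjusted p = 0.0381), while against the control the differences were -0.61 for IL-4 (adjusted p = 0.0547) and 0.26 for IL-4d2 (0.581). The call between the forms was lost without IL-4 mouse 2 (-0.69, 0.0945) or 3 (-0.88, 0.0716) and without IL-4d2 mouse 1 (-0.95, 0.073), 2 (-0.80, 0.13) or 3 (-0.86, 0.14). A dimmer Dnali1 probe set had the same direction (-1.34, adjusted p = 0.21) and was not called.

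Tubb4b read 7918, 6921 and 7107 in the controls, 6191, 4821 and 6497 with IL-4, and 8268, 8069 and 8642 with IL-4d2. The 3 groups did not overlap, with IL-4 lowest and IL-4d2 highest. IL-4 was 1.44-fold lower than IL-4d2 (-0.52 ± 0.11, limma adjusted p = 0.0349), with -0.33 for IL-4 (-0.20 without IL-4 mouse 2) and 0.19 for IL-4d2 against control, neither called. The call was lost without IL-4 mouse 2 (-0.39, 0.0777), control mouse 3 (-0.52, 0.0505) and IL-4d2 mouse 1 (-0.53, 0.098), 2 (-0.54, 0.0922) or 3 (-0.50, 0.145). The other 2 tested Tubb4b probe sets gave 0.38 and 0.24 between the forms, opposite in sign. They gave -0.24 and 0.25 for IL-4 against control, and -0.62 and 0.0041 for IL-4d2 against control. Beta tubulin genes are alike in sequence. The direction for Tubb4b is therefore uncertain.

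Other ciliary genes were counted from lists by role, to be read against the 6.63% of all genes called lower, the 6.34% called higher and the 52.6% below 0 with IL-4. Of 66 tested further axoneme genes, 10 were lower with IL-4 and 0 higher, 62 were below 0, and the median was -0.37. The largest called differences were Cfap57 (-1.28, limma adjusted p = 0.00917), Ttc29 (-1.12, 0.00177), Ttc25 (-1.08, 0.0203) and Fam183b (-0.98, 0.026). The count ran from 4 without control mouse 1 to 23 without IL-4 mouse 1, was 6 without IL-4 mouse 3 and 8 without IL-4 mouse 2, and the median was -0.16 without IL-4 mouse 2. Over all probe sets these fits called 568, 941, 918 and 934 lower, against 1211 with every array in. With IL-4d2 0 of the 66 were called in either direction, with a median of -0.01. Between the forms 5 of the 66 were lower with IL-4, against 1.05% of all genes. Among them were Cfap57 (-1.19, limma adjusted p = 0.0409) and Cfap161 (-0.79, 0.0123). Leaving out 1 array gave 0 (IL-4d2 mouse 3), 1 (IL-4d2 mouse 1 or 2), 2 (IL-4 mouse 2 or 3), 3 (control mouse 3) or 14 (IL-4 mouse 1). Over all probe sets these fits, in the same order of mice, called 38, 78, 65, 113, 138, 155 and 190 lower.

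Of 36 tested further genes of intraflagellar transport and the BBSome, a cargo complex of cilia, 7 were lower with IL-4 and 0 higher, with a median of -0.27. They were led by Dync2li1 (-0.61, limma adjusted p = 0.0189), Ift122 (-0.56, 0.0135), Ttc8 (-0.55, 0.0193) and Tctex1d2 (-0.55, 0.0079). The count was 1 without control mouse 1 (568 over all probe sets), 4 without IL-4 mouse 2 (934) and 4 without control mouse 3 (767). None of these genes was called with IL-4d2. Of 10 dynein arm assembly factors, 0 were called with IL-4 (median -0.41, or -0.21 without IL-4 mouse 2) or IL-4d2 (median 0.10). Of the 10 factors, 1 was called lower with IL-4 than with IL-4d2, against 1.05% of all genes. It was Ruvbl2 (-0.66, limma adjusted p = 0.0434), a call lost without IL-4 mouse 2 or 3, IL-4d2 mouse 1 or 2, or any control mouse.

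Of 17 tested regulators of multiciliogenesis other than Foxj1, 1 was lower and 2 were higher, against 6.63% and 6.34% of all genes. Myb was lower (-0.46, limma adjusted p = 0.0476), and Sass6, a centriole protein (0.55, 0.0366), and Tfdp1 (0.35, 0.0431) were higher. The median IL-4 difference was 0.00, or 0.07 without IL-4 mouse 2. None of the 3 calls stood in every fit with 1 array left out: Myb was kept only without IL-4 mouse 1, and the higher calls numbered between 0 and 1.

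**Figure D5:**
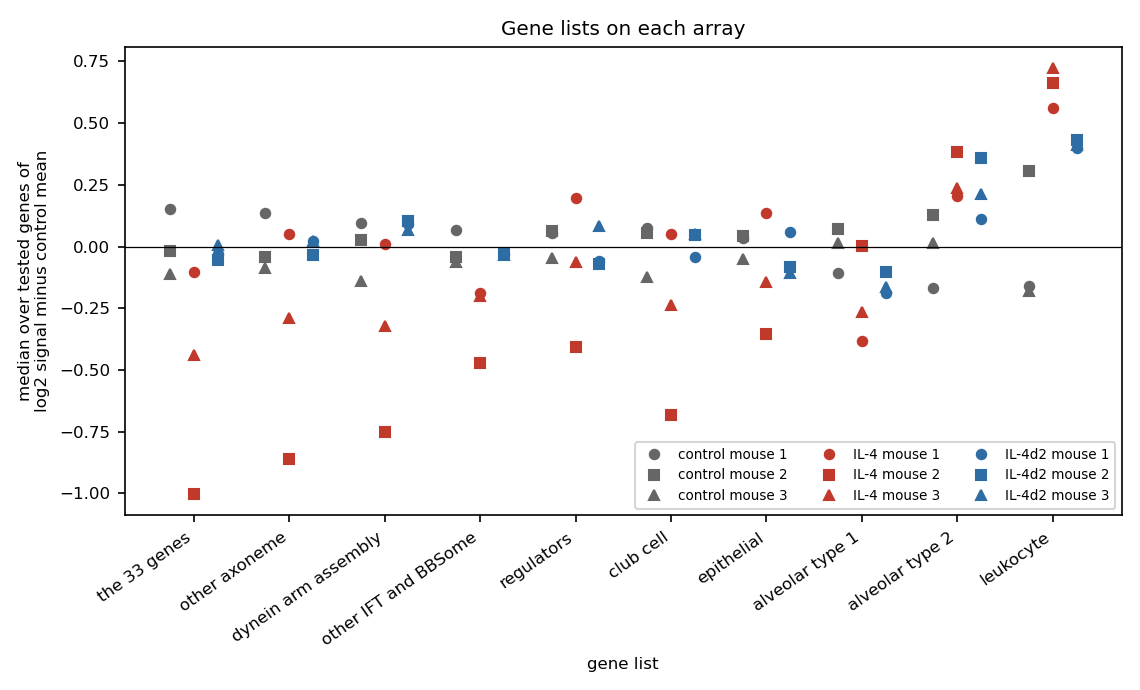
Median log2 difference from the control mean over the tested genes of each list (horizontal axis) on each array, with 1 marker per mouse. IL-4 mouse 2 is lowest for the 33 genes (-1.0) and for club cell (-0.68) and general epithelial genes (-0.36), while the leukocyte genes are between 0.56 and 0.72 in the 3 IL-4 mice.

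Some markers of other lung cells moved with the same groups, and their counts too stand against 6.63% of all genes called lower and 6.34% higher with IL-4. Of 17 tested club cell markers, 7 were lower with IL-4 and 0 higher, led by Pon1 (-2.01, limma adjusted p = 2.92e-05), Gsta3 (-1.01, 0.00105), Cldn10 (-0.92, 0.00184) and Hp (-0.76, 0.00464). Their summed signal was 244398 to 317499 in controls and 193957 to 299017 with IL-4. Of 10 goblet cell markers, Slc26a4 (4.35, 0.00014) and Itln1 (adjusted p = 0.0242) were higher with IL-4. Itln1 read 16.4, 184 and 2.70 in the controls and 2342, 133 and 813 with IL-4, and no fold is given because 2 controls were far below the array median. The goblet count ran from 1 to 5 with 1 array left out (5 without IL-4 mouse 2, 4 without control mouse 2, 1 when IL-4 mouse 1 or 3 was dropped, as for control mouse 1 or 3). The median deviation of the goblet list was 2.32, 0.19 and 1.25 in IL-4 mice 1, 2 and 3, and 0.07, 1.03 and -1.0 in the controls. The IL-4 mouse with the lowest ciliary signals therefore had the lowest goblet value of the 3, within the range of the controls.

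Leukocyte markers were higher in 11 of 16 tested genes with IL-4, with a summed signal of 48256 to 50739 against 27002 to 38449 in controls. With IL-4d2 they were higher in 1 of 16 (summed signal 37348 to 40634), against 0.859% of all genes. The leukocyte count for IL-4 fell to 7 without control mouse 1 or 3; for IL-4d2 it was 6 without control mouse 2 and 0 when IL-4 mouse 3, any IL-4d2 mouse, control mouse 1 or control mouse 3 was dropped. Heart and skeletal muscle markers were lower in 11 of 15 with IL-4, with a summed signal of 2558 to 11251 against 24043 to 145392 in controls, and in 3 without IL-4 mouse 2, control mouse 1 or control mouse 2 and 7 without IL-4 mouse 3. The extremes of this list lay on the arrays that stood apart for the ciliary genes: the highest sum was that of control mouse 1 and the lowest that of IL-4 mouse 2, with median deviations of 0.82 and -3.69. The fat list had deviations of 0.75 and -2.14 on the same arrays, the highest and the lowest of the 9. Alveolar type 1 markers were lower in 4 of 14 and alveolar type 2 markers higher in 4 of 13. The first count was 2 with IL-4 mouse 1 or 3 or control mouse 1 or 2 dropped. The second was 1 with IL-4 mouse 2 or control mouse 1 dropped, and 2 with IL-4 mouse 3, control mouse 3 or IL-4d2 mouse 1 or 3 dropped. The type 2 markers, which check the labelled tissue, read 1302 or more on every array. Of 15 general epithelial markers 2 were lower and 1 higher; the lower count was 4 with IL-4 mouse 1 dropped and 1 with IL-4 mouse 2, control mouse 1 or control mouse 2 dropped, and the higher call was kept in 3 of 9 such fits. Of 4 fat markers 3 were lower, with 1 without control mouse 1 and 4 without IL-4d2 mouse 3, and of 3 basal cell markers 0 were called. No tested marker of these lists was at 0 on any array. The part of these shifts in the ciliary values was not tested.

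RNA quality measures also differed between arrays. The ratio of the 3′ to the 5′ Gapdh probe set was 0.955, 1.45 and 1.44 in the controls, 1.80, 1.78 and 1.54 with IL-4, and 1.57, 1.35 and 1.47 with IL-4d2. It was lowest in control mouse 1, the control with the highest ciliary signals, and higher in each IL-4 mouse than in each control. The Actb ratio did not separate the groups, with 2.28, 2.80 and 2.88 in the controls, 3.75, 3.16 and 2.79 with IL-4, and 2.79, 2.61 and 2.34 with IL-4d2. The part of these ratios in the result was not tested.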

How the data were processed

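Signal intensities on a linear scale, deposited by the authors as a table of 45101 probe sets by 9 arrays, were used as given. Per the submitters' processing notes, the tools were MAS5, GCOS and Expression Console 2.0 from Affymetrix, with order and roles not given in the sources used here. A common trimmed mean (2% from each end) makes signals relative to each array's total.

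Genes were named from the platform annotation, with 34958 probe sets of 1 symbol, 932 of several and 9211 unnamed. The 64 control probe sets were left out. Probe sets above their own array's median on at least 3 of 9 arrays were tested with limma 3.58.1 (R 4.3.3; lmFit, eBayes with trend, 6 residual degrees of freedom, two-sided) on log2(signal + 16), in 1 fit of all 9 arrays and 3 contrasts, with Benjamini-Hochberg adjustment and a threshold of 0.05. The procedure was also run on simulated data, and no outcome of those runs is given here. Both cytokine comparisons share the same 3 control arrays.

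The members and lists were chosen with earlier results of these data known. Every member was named; values on every array were given for Foxj1, each called member and the member of each role with the largest IL-4 difference. From other lists, at most 4 called genes with the largest change were named. Promoter sequences are from RefSeq. Alternatives were 9 fits leaving out 1 array and 13 other settings, covering the pseudocount, the filter, the scaling, the probe set rule, the variance model and a replicate block. The main fit did not pair mice by replicate number.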

Additional observations from a re-analysis of the deposited data

Results flagged for a closer look

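The effects of the cytokine forms, each measured against the same control mice, differed by the limma contrast between them in 3 ciliary genes. IL-4 was below IL-4d2 by -0.70 for Tppp3 (adjusted p = 0.0144), by -0.87 for Dnali1 (0.0381) and by -0.52 for Tubb4b (0.0349), in all 3 mice of each group without overlap. Each call was lost when an IL-4d2 mouse was left out, and the other Tubb4b probe sets had the opposite sign.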

How the results depend on the processing

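The direction of the IL-4 median held under every setting tried, and the number of calls did not. The 7 genes called lower with IL-4 were 3 with no filter, 3 without the variance trend, 3 with only the 2 groups compared, 4 with robust variances, 4 with the mean of a gene's probe sets, and 1 when control mouse 1 was left out together with IL-4 mouse 2. Over all probe sets the calls lower were 870 of 45037 with no filter, 803 without the trend and 772 with only the 2 groups. They were 1188 with robust variances and 882 of 15537 with mean probe sets. Dropping that pair of arrays gave 493 of 23824 probe sets lower, beside 1 of the 33 genes. The median of the 33 genes was then -0.18, closer to 0 than in any fit with 1 array left out. Of the 33 differences, 27 lay below the median of all probe sets in that fit. With 1 array left out the calls among the 33 genes ranged from 2 to 18, and their median from -0.74 to -0.23. Over all probe sets the calls lower ranged from 568 to 1031 in the same fits, against 1211 with every array in. The 3 called between IL-4 and IL-4d2 were 1 with no filter, 1 with mean probe sets, 0 without the trend, and 1 without that pair of arrays. Over all probe sets these settings called 106, 154, 61 and 109 lower, against 199 in the main fit. With 1 array left out the calls lower ranged from 38 to 199 over all probe sets. The count for the 33 genes ranged from 0 to 11 in those fits, and their median from -0.65 to -0.24. For IL-4d2 against control the count was 0 in every fit run, and the median ranged from -0.09 to 0.04 with 1 array left out.

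Scaling to spiked controls moved all genes. With hybridisation controls the median of all probe sets shifted by -0.43 for IL-4, 0.08 for IL-4d2 and -0.52 between the forms, and with poly-A controls by -0.77, 0.27 and -1.04. The ciliary medians became -0.94 and -1.28 for IL-4, 0.26 for IL-4d2 (poly-A), and -0.98 and -1.48 between the forms; relative to all probe sets the IL-4 median was -0.50 and -0.51, against -0.49 in the deposited scaling. Calls lower with IL-4 rose to 28 and 33 genes, and between the forms to 33 and 33. Over all probe sets the IL-4 calls split into 7156 lower and 295 higher, then 17971 and 152, against 1211 and 1335; between the forms they split into 11074 and 89, then 22470 and 33, against 199 and 217. For IL-4d2 the splits were 63 and 245, then 50 and 469, against 93 and 221. With poly-A controls Foxj1 differed by -0.76 with IL-4 (adjusted p = 0.0044), which is 0.01 relative to the shift of all probe sets. The difference of Tubb4b between IL-4 and IL-4d2 turned to 0.033 (adjusted p = 0.936) with the mean of a gene's probe sets. The cause of these changes was not tested beyond the construction of each setting.

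Replicate numbers are shared by the groups. The deviations of same-numbered mice from their group means had correlations from -0.07 to 0.12 over the tested probe sets. With 3 arrays a group, such low values cannot settle whether the numbers pair mice. With the replicate block 8 of the 33 genes were called lower with IL-4, 0 with IL-4d2 and 2 between the forms. Over all probe sets 1159, 85 and 176 were called lower in that fit, against 1211, 93 and 199 without the block. Over the named genes and alternatives, 788 values kept side and direction, 49 newly passed the threshold, 82 no longer did and 2 turned. Array number limits precision: 3 mice a group.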

Other observations

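Tppp3 and Foxj1 were set side by side after their values had been seen, so these figures are a description. The deviation of Tppp3 from its control mean, minus that of Foxj1, was -1.16, -0.54 and -0.90 in the 3 IL-4 mice and -0.40, -0.52 and -0.33 in the 3 IL-4d2 mice, on the log2 scale. In the controls it was -0.08, -0.02 and 0.10. For Spag17 the same quantity was -1.38, -0.26 and -0.80 with IL-4, -0.81, -0.64 and -0.62 with IL-4d2, and 0.05, 0.06 and -0.11 in the controls. Foxj1 itself deviated by 0.56, -0.63 and 0.15 in the IL-4 mice and by 0.31, 0.37 and 0.15 in the IL-4d2 mice. Where Foxj1 was above its control mean, the subtraction alone lowers the value of an unchanged gene. For both Tppp3 and Spag17 the value was lower in all 6 cytokine mice than in any control. Of the 32 tested genes other than Foxj1, 14 had that pattern, a count not made over all genes, and the others did not. Ccdc39, for example, was at -0.08, 0.0036 and -0.13 with IL-4 against 0.19, -0.04 and -0.15 in the controls, and Hydin was at 0.19 in the second IL-4 mouse.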
